A study of Homo sapiens with 9 samples.

Results

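A set of 10 genes, out of the 58233 gene identifiers measured, holds known targets of Wnt/β-catenin signalling that either act back on the pathway or encode receptors. They are AXIN2, NKD1, NKD2, ZNRF3, RNF43 and APCDD1, which restrain the pathway, the receptor genes FZD7, LGR5 and TNFRSF19, and TCF7, a transcription factor of the pathway. The members were chosen with earlier results of these data known. They were taken by gene symbol, each matched 1 identifier, and 9 of the 10 had enough counts to be tested. RNA was measured in 3 groups of 3 libraries of TC32, a line grown from a Ewing sarcoma. In the first group, Wnt3a plus SB-505124, cells had Wnt3a for 28 h in all and SB-505124, which blocks the type I receptor kinases of TGF-β and activin, for the last 24 h. In the second group, Wnt3a, cells had the ligand for 28 h and DMSO for the last 24 h. Vehicle cells had PBS in place of Wnt3a and DMSO in place of the inhibitor. Every group grew in medium with fetal bovine serum. The sources used here give no doses, a single cell line was used, and there was no group with the inhibitor alone. Whether replicates were separate cultures is not in the labels, so every p-value rests on a spread between libraries that may be technical only. In these bulk samples, fewer cells of a type and less RNA per cell cannot be told apart.

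In the absence of a Wnt ligand, a complex built on Axin and APC proteins marks β-catenin for destruction. When a Wnt protein binds a Frizzled receptor and its LRP co-receptor, the complex is disabled, and β-catenin enters the nucleus and works with TCF/LEF factors to switch on target genes. Several of those targets, such as AXIN2, the NKD genes, ZNRF3 and RNF43, encode proteins that turn the signal down, which forms a negative feedback loop, while others encode receptors or a TCF factor.

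Total counts ran from 28844348 to 37540072 in Wnt3a plus SB-505124 libraries, from 36903919 to 42976799 in Wnt3a libraries and from 34348339 to 38637007 in vehicle libraries. Several properties of the libraries moved with the treatments, and their part in the results was not tested. Genes with a count numbered 23196 to 23250 with Wnt3a plus SB-505124, 25662 to 26802 with Wnt3a and 25128 to 25762 with vehicle. Replicate 1 of Wnt3a plus SB-505124 stood apart from its group, at -66.9 on the second principal component, where replicates 2 and 3 lay at 26.9 and 24.5. Of 12 markers of Ewing sarcoma checked, 0 were under 1 CPM (counts per 1000000 counts of the library) on average over the 9 libraries. Their summed level was 1487 to 2053 transcripts per 1000000 (TPM) with Wnt3a plus SB-505124, 2141 to 2449 TPM with Wnt3a and 2537 to 2847 TPM with vehicle. By the same mean over the 9 libraries, all 8 epithelial and 7 of 8 endothelial markers were under 1 CPM. So were 7 of 8 leukocyte markers, of which CD3E and HLA-DRA were at 0 in every library. Summed leukocyte markers were at 4.83 to 8.18 TPM with Wnt3a plus SB-505124, 3.44 to 4.65 TPM with Wnt3a and 2.88 to 4.20 TPM with vehicle. Summed endothelial markers were at 1.04 to 1.09, 1.60 to 1.91 and 1.76 to 2.29 TPM, and summed epithelial markers at 1.29 to 1.56, 2.04 to 2.74 and 2.03 to 2.40 TPM in the same groups. Of 10 fibroblast markers 1, PDGFRA, was under 1 CPM by that mean. Their summed level was 291 to 306 TPM with Wnt3a plus SB-505124, 488 to 751 TPM with Wnt3a and 399 to 608 TPM with vehicle. Of these 10 markers, 1 rose and 0 fell with Wnt3a against vehicle (median log2 0.83), 1 rose and 6 fell with Wnt3a plus SB-505124 against Wnt3a (median -0.85), and 1 rose and 4 fell with Wnt3a plus SB-505124 against vehicle (median -0.40). Of the 12 Ewing sarcoma markers 0 rose in any comparison, and 0 fell with Wnt3a against vehicle (median log2 -0.31). With Wnt3a plus SB-505124, 5 fell against Wnt3a (median -0.05, beside -0.06 over all genes tested). Against vehicle 6 fell (median -0.575, beside -0.04 over all genes tested). Over all genes tested, 24.5% rose and 25.9% fell with Wnt3a plus SB-505124 against Wnt3a, and 25.0% rose and 24.8% fell against vehicle.

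With Wnt3a, 6 of the 9 tested genes rose relative to vehicle and 0 fell. Those that rose were the intracellular inhibitors AXIN2, NKD1 and NKD2, the receptor genes FZD7 and TNFRSF19, and TCF7. Of all 17880 genes tested, 0.397% rose and 0.0224% fell in that comparison. Because the genes were chosen with earlier results of these data known, the figures of this paragraph are a description and no independent evidence. At an unadjusted p under 0.05 the same edgeR fit had 1 of the 9 lower, APCDD1. At an adjusted p under 0.05, DESeq2 and limma-voom each called 0 lower, as edgeR did. TNFRSF19 passed the filter on low counts through the Wnt3a group, with 3 Wnt3a libraries, 1 Wnt3a plus SB-505124 library and 0 vehicle libraries over its minimum of 0.266 CPM, so it had to differ and its calls support no count. Among the other 8 genes, each over the minimum in all 9 libraries, 5 rose and 0 fell with Wnt3a, with a median log2 fold change of 1.21, against 0.01 over all genes tested. Relative to Wnt3a alone, AXIN2 rose and NKD2, ZNRF3 and LGR5 fell, at 1 and 3 of 9, where 24.5% of all genes rose and 25.9% fell. The counts were also 1 and 3 among the 8, with a median of -0.12, against -0.06 over all genes. In Wnt3a plus SB-505124 against vehicle, 5 of 9 rose (AXIN2, NKD1, TCF7, FZD7 and TNFRSF19) and 3 fell (ZNRF3, LGR5 and APCDD1), where 25.0% of all genes rose and 24.8% fell. Among the 8, 4 rose and 3 fell, with a median of 0.61, against -0.04 over all genes. With library totals in place of TMM scaling, 6 of the 9 rose and 0 fell with Wnt3a against vehicle, 0 rose and 4 fell with Wnt3a plus SB-505124 against Wnt3a, and 5 rose and 3 fell against vehicle. The comparisons share libraries and are given side by side.

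**Figure D1:**
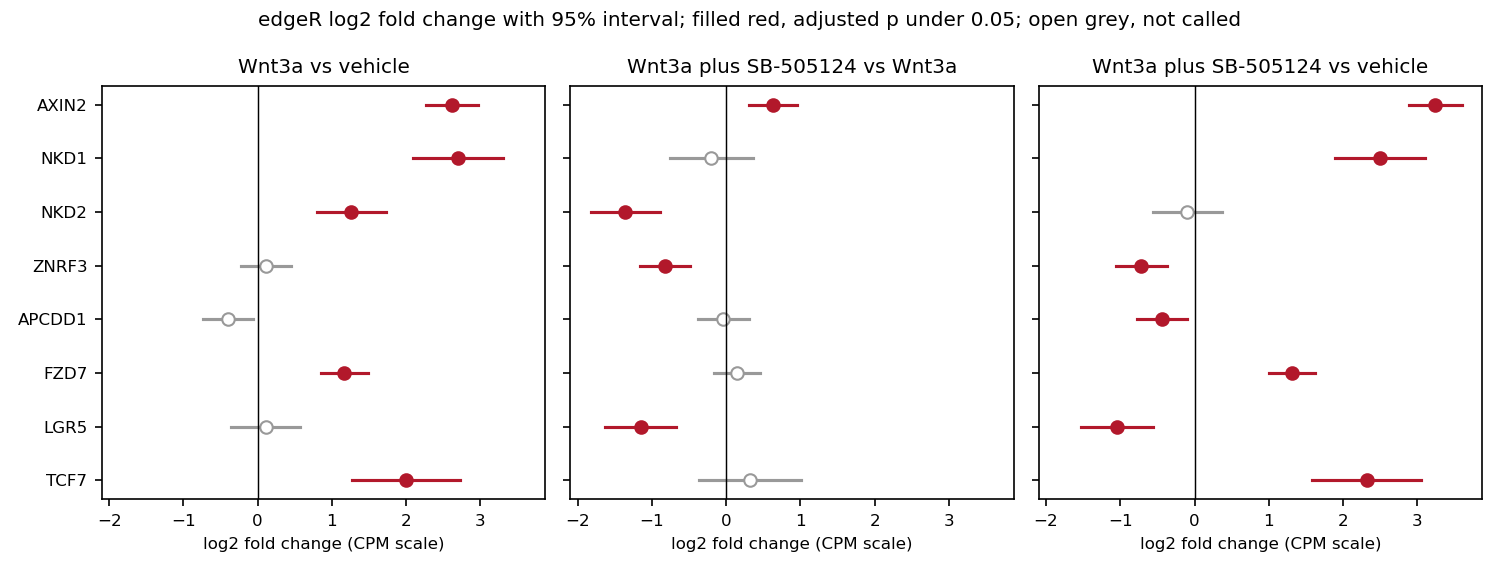
edgeR log2 fold change (horizontal axis, CPM scale) of 8 genes in each comparison, with its 95% interval as a line; filled red points passed an adjusted p of 0.05 and open grey points did not. AXIN2, NKD1, FZD7 and TCF7 lie right of 0 in both comparisons with vehicle, whereas NKD2 lies at 1.26 for Wnt3a against vehicle and at -0.10 for Wnt3a plus SB-505124 against vehicle; TNFRSF19, with 0 counts in vehicle, and RNF43 are not drawn.

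Per unit of transcript length, in TPM, the genes differed widely in level. APCDD1 was the highest in every group, at 560 ± 123 TPM with Wnt3a plus SB-505124, 772 ± 127 TPM with Wnt3a and 968 ± 169 TPM with vehicle (SD, n = 3 each), which put it at rank 233, 197 and 165 among all genes in those groups. The other 9 stayed at or below 16.2 TPM on average. With Wnt3a plus SB-505124 the next were AXIN2 at 10.48 ± 1.56 TPM, FZD7 at 9.32 ± 0.915 TPM, TCF7 at 8.21 ± 3.18 TPM and NKD1 at 6.64 ± 1.31 TPM, whose neighbours in this order overlapped, followed by NKD2 at 4.86 ± 0.284 TPM, LGR5 at 2.89 ± 1.26 TPM and ZNRF3 at 2.12 ± 0.325 TPM. With Wnt3a, NKD2 was second at 16.2 ± 3.02 TPM and overlapped no other gene. The 6 genes below it in that group, FZD7, AXIN2, TCF7, LGR5, NKD1 and ZNRF3, ran from 10.8 to 4.36 TPM, and each overlapped the next. In vehicle cells the order after APCDD1 was LGR5 at 6.68 ± 1.08 TPM, NKD2 at 6.16 ± 1.31 TPM, FZD7 at 4.54 ± 0.622 TPM and ZNRF3 at 3.78 ± 0.793 TPM. TCF7, AXIN2 and NKD1 came below, at 2.05 ± 0.648, 1.28 ± 0.217 and 1.03 ± 0.415 TPM. LGR5 overlapped NKD2, FZD7 overlapped ZNRF3, and TCF7, AXIN2 and NKD1 each overlapped the next. TNFRSF19 was at 0.103 ± 0.0493 TPM with Wnt3a plus SB-505124, at 0.250 ± 0.0964 TPM with Wnt3a and listed at 0 in vehicle cells.

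**Figure D2:**
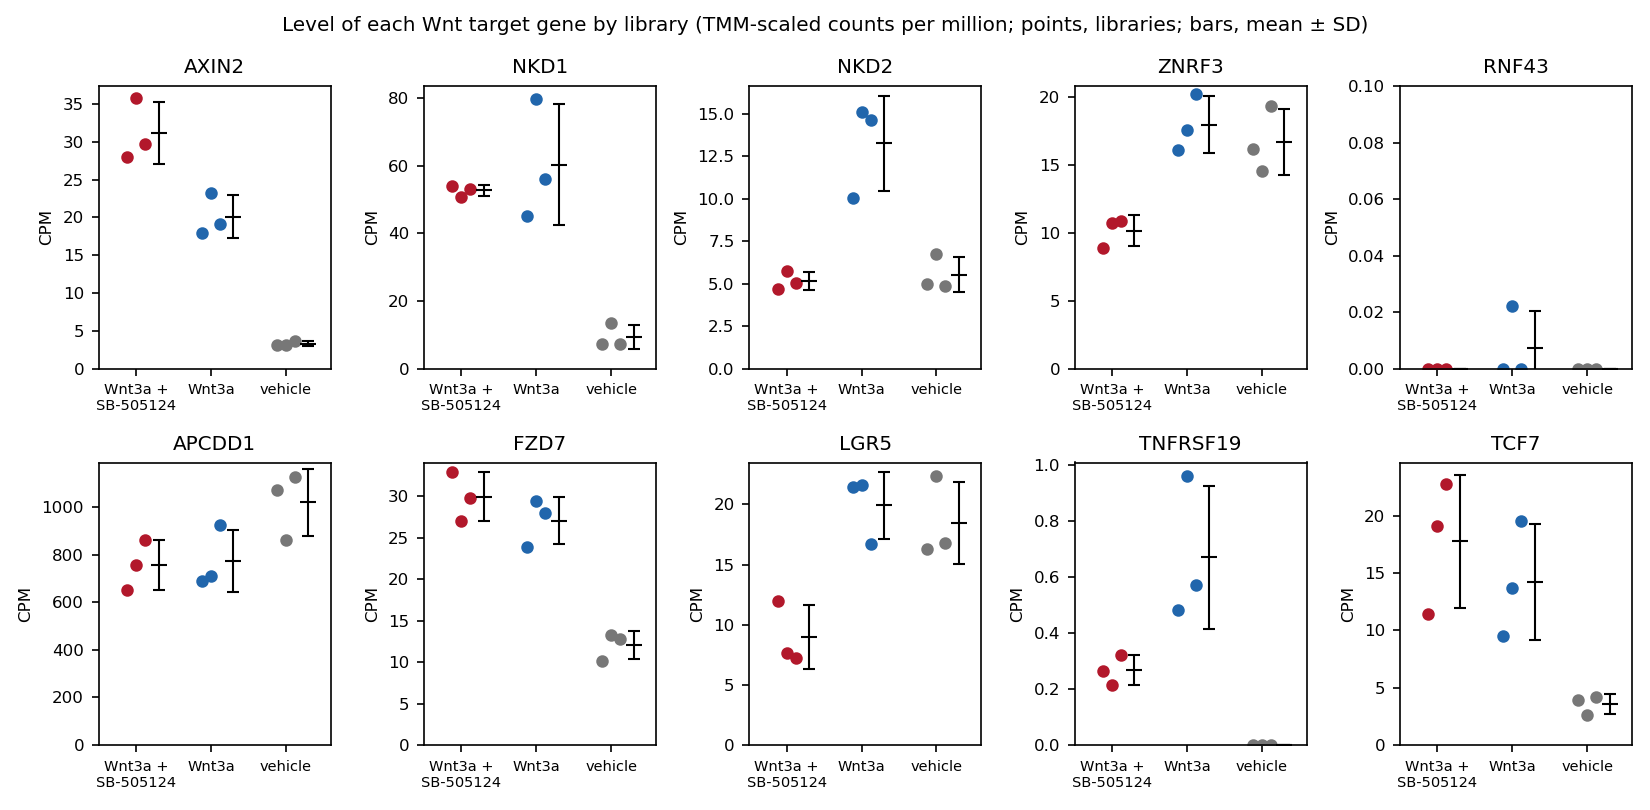
CPM of each of the 10 genes (vertical axes, each with its own scale) in the 9 libraries, with groups from left to right Wnt3a plus SB-505124, Wnt3a and vehicle, points for libraries and bars for the mean ± SD of 3. AXIN2 lies at 27.9 to 35.7 CPM with Wnt3a plus SB-505124, 17.9 to 23.3 CPM with Wnt3a and 3.05 to 3.66 CPM with vehicle, whereas NKD2 is high with Wnt3a alone.

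The first role is that of inhibitors inside the cell. AXIN2, the inducible scaffold of the β-catenin destruction complex, lies on the minus strand of chromosome 17 (65528563 to 65561647, hg38). It had 27.9, 35.7 and 29.7 CPM in Wnt3a plus SB-505124 replicates 1, 2 and 3, 17.9, 23.3 and 19.1 CPM in Wnt3a replicates, and 3.15, 3.05 and 3.66 CPM in vehicle replicates, from 736 to 1175, 705 to 1042 and 112 to 143 counts. No 2 groups overlapped. AXIN2 rose 6.11-fold with Wnt3a against vehicle (log2 2.61, SE 0.157, edgeR adjusted p = 0.000119). It rose 9.46-fold with Wnt3a plus SB-505124 against vehicle (log2 3.24, SE 0.160, edgeR adjusted p = 1.45e-06). The step between the treated groups was 1.55-fold higher with SB-505124 (log2 0.63, SE 0.144, edgeR adjusted p = 0.00471). This last call was lost when library totals replaced TMM scaling (log2 0.38, adjusted p = 0.0543), a setting that moved the median of all genes by -0.249, and with limma-trend on TPM (log2 0.31 and 0.34, adjusted p = 0.181 and 0.213, within 0.000189 to 0.213 over all alternatives).

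NKD1 and NKD2 encode the Naked cuticle proteins, which bind Dishevelled and dampen the signal. NKD1, on the plus strand of chromosome 16 (50548330 to 50649249), had 54.0, 50.8 and 53.2 CPM with Wnt3a plus SB-505124, 45.0, 79.9 and 56.2 CPM with Wnt3a, and 7.36, 13.5 and 7.14 CPM with vehicle. Every treated library lay above every vehicle library, and the treated groups overlapped. NKD1 rose 6.46-fold with Wnt3a (log2 2.69, SE 0.272, edgeR adjusted p = 0.00299) and 5.64-fold with Wnt3a plus SB-505124 (log2 2.49, SE 0.271, edgeR adjusted p = 5.82e-05), both against vehicle. Between the treated groups its log2 difference was -0.20, with a 95% interval of -0.76 to 0.37 (edgeR adjusted p = 0.540).

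NKD2, on the plus strand of chromosome 5 (1008829 to 1038943), followed another course. It had 4.71, 5.75 and 5.05 CPM with Wnt3a plus SB-505124, 10.1, 15.1 and 14.7 CPM with Wnt3a, and 5.003, 6.74 and 4.86 CPM with vehicle. The Wnt3a libraries lay above both other groups, which overlapped each other. NKD2 rose 2.40-fold with Wnt3a against vehicle (log2 1.26, SE 0.207, edgeR adjusted p = 0.0327) and fell with Wnt3a plus SB-505124 against Wnt3a (log2 -1.36, SE 0.209, edgeR adjusted p = 0.000466). Against vehicle, Wnt3a plus SB-505124 differed by a log2 of -0.10, with a 95% interval of -0.56 to 0.37 (edgeR adjusted p = 0.718). The rise with Wnt3a missed the threshold without vehicle replicate 1 or 3, Wnt3a replicate 2 or 3, or Wnt3a plus SB-505124 replicate 2 or 3, and with only the groups compared (adjusted p 0.0596 to 0.195, log2 1.16 to 1.26). Over all alternatives its adjusted p ran from 3.76e-06 to 0.195.

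The balance within this pair of relatives was compared per library as the ratio of NKD1 to NKD2 in TPM. It was 1.59, 1.05 and 1.48 with Wnt3a plus SB-505124, 0.312, 0.469 and 0.350 with Wnt3a, and 0.122, 0.190 and 0.179 with vehicle. The 3 groups did not overlap. The mean log2 ratio was higher by 1.86 with Wnt3a plus SB-505124 than with Wnt3a, by 3.07 with Wnt3a plus SB-505124 than with vehicle and by 1.21 with Wnt3a than with vehicle. Expected counts are not divided by transcript length, so their ratio allows no comparison of levels between the 2 genes. With expected counts in place of TPM, the same differences were 1.19, 2.65 and 1.46, again without overlap. For Wnt3a plus SB-505124 against Wnt3a, the TPM value thus exceeded the count value by more than 1.5 times, and the mean NKD1 length given next was shorter with the inhibitor. Each two-sided exact permutation p was 0.1, the smallest that 3 libraries against 3 allow, in TPM and in counts.

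The mean transcript length that the authors' files give for a gene, weighted by transcript abundance, was a readout that the choice of genes did not use. For NKD1 it was 8073, 11294 and 9670 bases with Wnt3a plus SB-505124, 17105, 14680 and 13624 bases with Wnt3a, and 17105, 13243 and 10162 bases with vehicle. The Wnt3a plus SB-505124 libraries lay below the Wnt3a libraries and overlapped the vehicle libraries. The difference from Wnt3a was -5457 bases (two-sided exact permutation p = 0.1, the smallest possible, 0.978 after Benjamini-Hochberg adjustment over 22 tests of length). The 22 tests cover 3 comparisons and both directions, and NKD1 was the sole case without overlap. Over 13918 genes, 16.4% were shorter and 5.86% longer without overlap with Wnt3a plus SB-505124 against Wnt3a. Against vehicle 15.9% were shorter and 5.6% longer, and with Wnt3a against vehicle 3.97% and 4.53%. The NKD1 difference is therefore a description and does not set this gene apart from all genes. GENCODE 29 lists 1 protein-coding NKD1 transcript of 17105 bases and shorter noncoding ones of 477 and 748 bases. If the authors' annotation held these 3, the long transcript made up 44.8% to 65.1% of NKD1 TPM with Wnt3a plus SB-505124, 78.7% to 100% with Wnt3a and 57.6% to 100% with vehicle. These are shares of TPM and not of counts. The short transcripts, being so much shorter, would hold a far smaller share of the counts, which numbered 262 to 556 per vehicle library. The shares can thus rest on few reads. If the annotation held these 3, the long transcript came to 3.42 to 3.70 TPM with Wnt3a plus SB-505124, where NKD2 as a whole had 4.53 to 5.05 TPM. The gene-level NKD1 value of 5.30 to 7.91 TPM lay above NKD2 in each of those 3 libraries, and the long transcript lay below NKD2 as a whole. NKD2 was not split in the same way. GENCODE 29 lists retained-intron NKD2 transcripts of 491, 872 and 1060 bases and protein-coding ones of 1940 and 2155 bases. The mean NKD2 length was 1158 to 1402 bases in those libraries. The order of the protein-coding transcripts of the 2 genes is therefore not known. In the other 6 libraries NKD1 was below NKD2 in TPM on either reading. With an offset for effective length, the NKD1 log2 difference between the treated groups was 0.44 in place of -0.20, and neither passed the test.

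**Figure D3:**
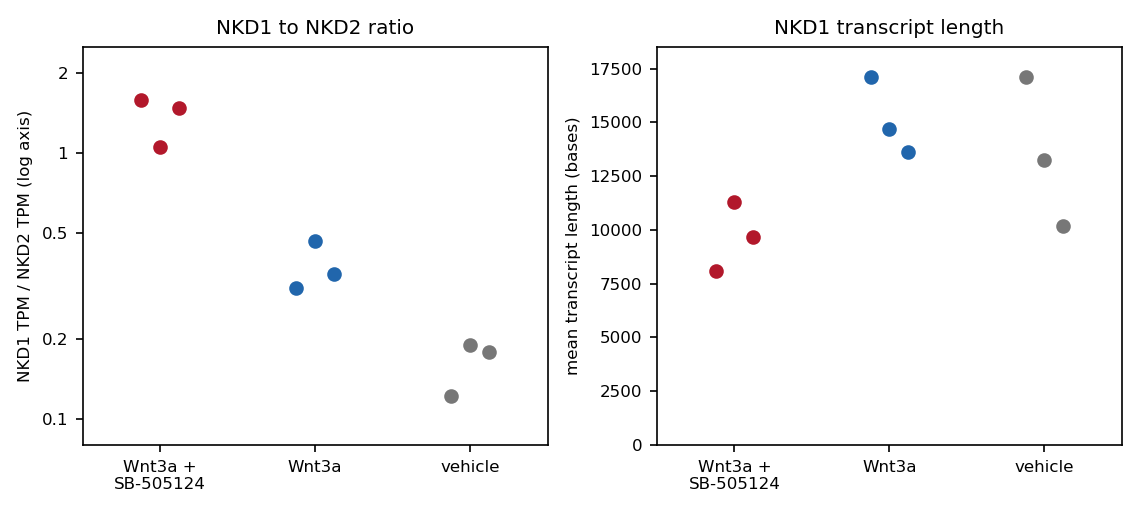
Left, ratio of NKD1 to NKD2 in TPM on a log axis; right, mean NKD1 transcript length in bases; 1 point per library, groups from left to right Wnt3a plus SB-505124, Wnt3a and vehicle. The ratio is 1.05 to 1.59 with Wnt3a plus SB-505124, 0.312 to 0.469 with Wnt3a and 0.122 to 0.190 with vehicle, and the length is 8073 to 11294 bases, 13624 to 17105 bases and 10162 to 17105 bases in the same groups.

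The second role is restraint at the cell surface. ZNRF3 and RNF43 are related membrane ubiquitin ligases that remove Frizzled receptors. ZNRF3, on the plus strand of chromosome 22 (28883592 to 29057487), had 8.84, 10.7 and 10.9 CPM with Wnt3a plus SB-505124, 16.1, 17.5 and 20.2 CPM with Wnt3a, and 16.1, 14.5 and 19.3 CPM with vehicle. The 3 libraries with the inhibitor lay below the other 6. ZNRF3 fell with Wnt3a plus SB-505124 against Wnt3a (log2 -0.82, SE 0.153, edgeR adjusted p = 0.00148) and against vehicle (log2 -0.71, SE 0.153, edgeR adjusted p = 0.00336). Wnt3a against vehicle gave a log2 of 0.11 with a 95% interval of -0.23 to 0.44 (edgeR adjusted p = 0.931).

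RNF43, on the minus strand of chromosome 17 (58352500 to 58417595), had 1 count in 1 Wnt3a library and 0 in the other 8. A count of 0 allows up to 0.0331 CPM over the Wnt3a plus SB-505124 libraries and up to 0.0259 CPM over the vehicle libraries, by the floor of 3 counts over a group. These limits cover counting error only. RNF43 was therefore too low for a test or for a ratio to ZNRF3, and no difference in it was detectable at this depth.

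APCDD1, on the plus strand of chromosome 18 (10454628 to 10489948), encodes a membrane glycoprotein that binds Wnt and LRP proteins and inhibits signalling. It had 652, 756 and 861 CPM with Wnt3a plus SB-505124, 690, 711 and 924 CPM with Wnt3a, and 1074, 862 and 1129 CPM with vehicle. APCDD1 fell with Wnt3a plus SB-505124 against vehicle (log2 -0.43, SE 0.152, edgeR adjusted p = 0.0369), although the highest library with the inhibitor, at 861 CPM, and the lowest vehicle library, at 862 CPM, nearly met. Leaving out vehicle replicate 1 or 3, or Wnt3a plus SB-505124 replicate 1 or 2, ended that call (adjusted p 0.0906 to 0.132, within 0.00258 to 0.132 over all alternatives). Against vehicle, Wnt3a gave a log2 of -0.40 with a 95% interval of -0.74 to -0.06 and an unadjusted p of 0.0256 (edgeR adjusted p = 0.545). Between the treated groups the log2 difference was -0.04 (95% interval -0.37 to 0.30, edgeR adjusted p = 0.861).

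The third role is that of receptors. FZD7, a Frizzled receptor for Wnt proteins encoded by a single annotated transcript on the plus strand of chromosome 2 (202034587 to 202038445), had 32.9, 27.1 and 29.8 CPM with Wnt3a plus SB-505124, 23.8, 29.4 and 28.0 CPM with Wnt3a, and 10.1, 13.2 and 12.7 CPM with vehicle. All 6 treated libraries lay above the vehicle libraries. FZD7 rose 2.25-fold with Wnt3a (log2 1.17, SE 0.140, edgeR adjusted p = 0.00629) and 2.48-fold with Wnt3a plus SB-505124 (log2 1.31, SE 0.141, edgeR adjusted p = 5.4e-05), both against vehicle. The treated groups overlapped, with a log2 difference of 0.14 (95% interval -0.16 to 0.45, edgeR adjusted p = 0.402).

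LGR5, a receptor for R-spondins and a marker of intestinal stem cells, lies on the plus strand of chromosome 12 (71439770 to 71586310). It had 12.01, 7.66 and 7.25 CPM with Wnt3a plus SB-505124, 21.4, 21.6 and 16.7 CPM with Wnt3a, and 16.3, 22.4 and 16.8 CPM with vehicle. Replicate 1 was the highest of the libraries with the inhibitor, and all 3 lay below the other 6. LGR5 fell with Wnt3a plus SB-505124 against Wnt3a (log2 -1.15, SE 0.217, edgeR adjusted p = 0.00156) and against vehicle (log2 -1.04, SE 0.217, edgeR adjusted p = 0.00278). With Wnt3a against vehicle its log2 fold change was 0.11, with a 95% interval of -0.36 to 0.58 (edgeR adjusted p = 0.953).

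TNFRSF19, also known as TROY, belongs to the tumour necrosis factor receptor superfamily and lies on the plus strand of chromosome 13 (23570370 to 23676104). It had 7, 7 and 10 counts with Wnt3a plus SB-505124, 19, 43 and 25 counts with Wnt3a, and 0 in each vehicle library. Set against a floor of 3 counts over the vehicle group, its observed level was 26.2-fold higher with Wnt3a (edgeR adjusted p = 0.013). With Wnt3a plus SB-505124 it was 10.2-fold higher (edgeR adjusted p = 0.000934). These folds leave out the counting error of the treated groups, whose 95% limits were 0.544 to 0.837 CPM with Wnt3a and 0.170 to 0.3945 CPM with Wnt3a plus SB-505124. As TNFRSF19 passed the filter on low counts through the Wnt3a group, its p-values against vehicle are a description and no evidence of a rise. Between the treated groups, which did not overlap, the log2 difference was -1.33 (SE 0.488, 95% interval -2.45 to -0.20, edgeR adjusted p = 0.0517). That difference passed with library totals, limma-voom or only the groups compared (adjusted p 0.029 to 0.0413, within 0.029 to 0.209 over all alternatives). Because the filter was passed through the Wnt3a group, these p-values too are a description and no evidence of a fall. The rise with Wnt3a missed the threshold without vehicle replicate 1 (adjusted p = 0.0534), vehicle replicate 3 (0.0656) or Wnt3a replicate 2 (0.057), and with limma-trend on TPM (0.062 and 0.230). The rise with Wnt3a plus SB-505124 missed it with limma-trend on log2(TPM + 1) (adjusted p = 0.187, within 5.11e-05 to 0.187).

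TCF7 encodes TCF-1, a DNA-binding partner of β-catenin, on the plus strand of chromosome 5 (134114711 to 134151865). It had 11.4, 19.2 and 22.8 CPM with Wnt3a plus SB-505124, 9.48, 13.7 and 19.6 CPM with Wnt3a, and 3.91, 2.62 and 4.20 CPM with vehicle. The treated libraries spread widely and all lay above the vehicle libraries. TCF7 rose 3.99-fold with Wnt3a (log2 1.996, SE 0.327, edgeR adjusted p = 0.0327) and 4.99-fold with Wnt3a plus SB-505124 (log2 2.32, SE 0.330, edgeR adjusted p = 0.000293), both against vehicle. Between the treated groups the log2 difference was 0.32 (95% interval -0.37 to 1.01, edgeR adjusted p = 0.407). The rise with Wnt3a missed the threshold in 10 of 20 alternatives (adjusted p 0.0678 to 0.157, within 3.16e-07 to 0.157 over all), among them leaving out any 1 vehicle library, Wnt3a replicate 2 or 3, or Wnt3a plus SB-505124 replicate 2. TCF7 overlaps SKP1, a gene on the opposite strand at 339, 382 and 374 CPM on average with Wnt3a plus SB-505124, Wnt3a and vehicle. The kit was stranded, but the sources used here do not give the strand setting of the counting, so TCF7 values are uncertain.

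Upstream sequence was examined because 6 of the genes were called higher with Wnt3a, TNFRSF19 among them, whose call supports no count. RefSeq (GRCh38.p14) windows of 250 bases before a transcript start were at hand for 5 of the genes, NKD2, TCF7, TNFRSF19, RNF43 and APCDD1, 8 windows in all. RNF43 and APCDD1 were not called higher with Wnt3a, and AXIN2, NKD1 and FZD7, which were, had no window. The search therefore describes these windows and cannot speak for the genes that rose. For TCF/LEF factors the search took, on both strands, the word CTTTGAA, the word CTTTGAT, the word CTTTGTA and the word CTTTGTT. A word was found in 1 of the 8 windows, against 11.96% of 35116 windows of the same length over all genes. It was the window before a TCF7 transcript that starts at position 134123618, chr5:134123368-134123617 on the plus strand, shown 5′ to 3′ below with the match in capitals. The match is CTTTGTT on the minus strand and begins 50 bases before the start. The window of NKD2, chr5:1008552-1008801 on the plus strand, is shown for comparison as a gene that rose with Wnt3a and holds no match. The palindrome GTCTAGAC, a SMAD word, was in 0 of the 8 windows and in 0.182% of all. A match is a description of the letters and not a binding site.
TCF7: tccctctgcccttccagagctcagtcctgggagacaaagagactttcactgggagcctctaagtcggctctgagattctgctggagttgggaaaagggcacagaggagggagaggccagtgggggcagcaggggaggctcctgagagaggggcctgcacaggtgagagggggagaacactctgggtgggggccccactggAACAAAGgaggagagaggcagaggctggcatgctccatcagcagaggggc
NKD2: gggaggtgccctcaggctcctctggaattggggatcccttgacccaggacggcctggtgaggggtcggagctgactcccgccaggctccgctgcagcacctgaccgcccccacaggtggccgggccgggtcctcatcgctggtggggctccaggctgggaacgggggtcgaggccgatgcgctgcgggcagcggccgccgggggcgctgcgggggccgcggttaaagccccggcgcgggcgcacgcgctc

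The other genes of the pathway were read from 6 lists, with 110 genes tested. With Wnt3a against vehicle, 1 of the 110 rose and 0 fell with edgeR. It was WIF1, whose secreted product captures Wnt proteins, at 40.8, 44.1 and 29.4 CPM with Wnt3a and 2.45, 2.18 and 1.54 CPM with vehicle (log2 4.21, edgeR adjusted p = 0.000308). At an unadjusted p under 0.05 the edgeR fit had 17 of the 110 higher and 5 lower, and the share of all genes at that threshold is not given here. At an adjusted p under 0.05, DESeq2 called 4 higher and 0 lower, and limma-voom 1 and 0. Of 27 other Wnt target genes, 0 passed in that comparison, with 6 higher and 2 lower at an unadjusted p under 0.05 and a median log2 of -0.01. Beside WIF1, the pathway genes called with Wnt3a were the 6 members named above. The members were chosen with earlier results of these data known, so this is a description and no independent evidence.

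With Wnt3a plus SB-505124 against Wnt3a, 33 of the 110 rose and 25 fell, or 30.0% and 22.7%, near the 24.5% and 25.9% of all genes. With library totals 22 rose and 42 fell, a setting in which 30.6% of the calls over all genes were higher, in place of 48.6%. Among 27 other Wnt targets 10 rose and 5 fell with a median log2 of 0.11 (8 and 8, with a median of -0.14, with library totals). JAG1, a Notch ligand, had 129, 99.6 and 94.98 CPM with Wnt3a plus SB-505124 and 42.3, 38.1 and 33.1 CPM with Wnt3a (log2 1.51, edgeR adjusted p = 4.39e-05). TWIST1, a mesenchymal transcription factor, also rose (log2 1.11, edgeR adjusted p = 0.000298), and LBH, a transcription cofactor, fell (log2 -0.76, edgeR adjusted p = 7.35e-05). Of 16 other receptors 0 rose and 5 fell (0 and 8 with library totals), with a median log2 of -0.17 (-0.42 with library totals). At an unadjusted p under 0.05 the edgeR fit had 1 of them higher. At an adjusted p under 0.05, DESeq2 had 1 higher and limma-voom 0. The co-receptor gene LRP5 had 37.1, 43.9 and 46.6 CPM with Wnt3a plus SB-505124 and 73.7, 79.6 and 77.7 CPM with Wnt3a (log2 -0.86, edgeR adjusted p = 0.000117). The Frizzled genes FZD4 and FZD2 fell as well (log2 -1.24 and -1.27, edgeR adjusted p = 0.00169 and 0.00177).

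Of 10 genes tested on the list of secreted antagonists, 1 rose and 4 fell in the same comparison, with a median log2 of -0.35 (1 and 5, with a median of -0.60, with library totals). The 4 include KREMEN2, which encodes a membrane receptor and not a secreted protein. Its level was low, at a mean of 0.148 CPM with Wnt3a plus SB-505124 and 0.740 CPM with Wnt3a. WIF1 fell to 9.79, 5.60 and 5.34 CPM with Wnt3a plus SB-505124 (log2 -2.47, edgeR adjusted p = 6.14e-05), whereas DKK1, which blocks the LRP co-receptors, had 166, 192 and 183 CPM with Wnt3a plus SB-505124 and 13.7, 9.76 and 50.01 CPM with Wnt3a (log2 2.88, edgeR adjusted p = 0.00438). Of 27 cytoplasmic transducers 15 rose and 3 fell, with a median log2 of 0.34 (7 and 6, with a median of 0.09, with library totals). AXIN1, the constitutive relative of AXIN2, had 69.1, 94.6 and 104.8 CPM with Wnt3a plus SB-505124 and 48.6, 49.4 and 54.2 CPM with Wnt3a (log2 0.82, edgeR adjusted p = 0.000862). FBXW11, which targets β-catenin for degradation, rose too (log2 0.98, edgeR adjusted p = 7.14e-05). So did DVL2, a Dishevelled gene (log2 0.63, edgeR adjusted p = 0.000648). Of 18 nuclear factors 4 rose and 3 fell, with a median log2 of -0.13 (3 and 9, with a median of -0.38, with library totals). PYGO2, a coactivator of β-catenin, fell to 35.3, 34.5 and 41.8 CPM with Wnt3a plus SB-505124, against 107, 107 and 99.8 CPM with Wnt3a (log2 -1.49, edgeR adjusted p = 5.2e-06). The nuclear factor genes CREBBP and TLE2 rose (log2 0.98 and 0.81, edgeR adjusted p = 0.00187 and 0.0012). Of 12 ligand and secretion genes 3 rose and 5 fell, with a median log2 of -0.33 (3 and 6, with a median of -0.57, with library totals), among them WLS, the carrier of Wnt proteins (log2 0.87, edgeR adjusted p = 5.48e-05), and WNT5A (log2 -0.86, edgeR adjusted p = 0.000963).

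With Wnt3a plus SB-505124 against vehicle, 42 of the 110 rose and 21 fell, or 38.2% and 19.1%, beside 25.0% and 24.8% of all genes. With library totals 22 rose and 29 fell, and 33.6% of the calls over all genes were higher, in place of 50.2%. By list, 12 rose and 4 fell of the other targets, 4 and 4 of the ligand and secretion genes, 3 and 5 of the receptors, 4 and 2 of the secreted antagonist list (KREMEN2 among the lower), 15 and 3 of the cytoplasmic transducers and 4 and 3 of the nuclear factors. With library totals these became 8 and 5, 1 and 5, 0 and 7, 2 and 3, 9 and 5, and 2 and 4. The TMM-scaled median log2 fold changes were 0.24, -0.38, -0.19, -0.13, 0.41 and 0.05 in that order, against 0.01, -0.61, -0.42, -0.36, 0.18 and -0.18 with library totals. DKK1 (log2 3.79, edgeR adjusted p = 0.00119), JAG1 (log2 1.97, edgeR adjusted p = 1.07e-05) and SNAI2, a repressor of epithelial genes (log2 2.30, edgeR adjusted p = 0.000509), were among those that rose. FZD4 had 53.9, 27.9 and 27.0 CPM with Wnt3a plus SB-505124 and 140, 124 and 157 CPM with vehicle (log2 -1.96, edgeR adjusted p = 0.00012).

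**Figure D4:**
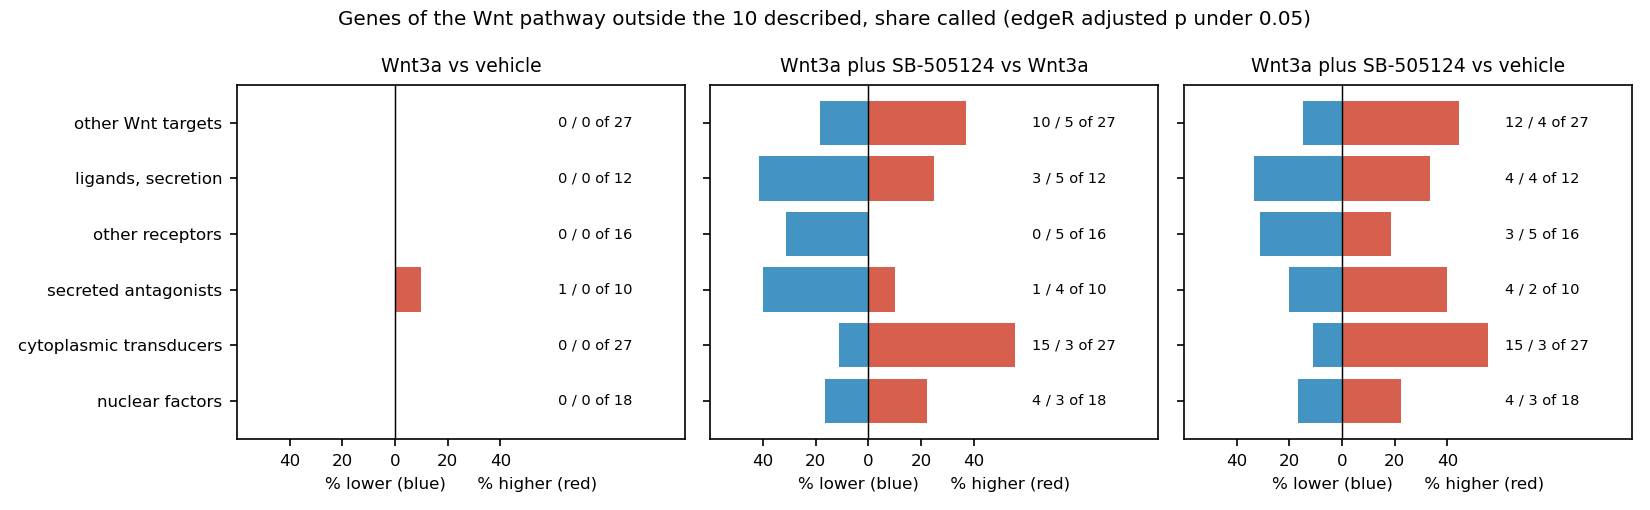
Share of the tested genes of 6 Wnt pathway lists that was called higher (red, to the right) or lower (blue, to the left) by edgeR in each comparison, with the counts higher and lower of those tested printed at the right. With Wnt3a against vehicle WIF1 alone was called, whereas 15 of 27 cytoplasmic transducers were higher in both comparisons of Wnt3a plus SB-505124 (7 and 9 with library totals).

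Likeness to AXIN2 was measured over the 9 libraries as the root mean square difference in log2 CPM after each gene's vehicle mean was subtracted. It was taken among 13095 genes, the tested genes with a mean of at least 1 CPM and the other members. Symbols that matched a pattern for clone names, which can also take in other genes, were left out. TSHZ1, a zinc finger gene, was closest at 0.278, with mean levels of 40.6 CPM with Wnt3a plus SB-505124, 34.2 CPM with Wnt3a and 5.54 CPM with vehicle. NRP2, a neuropilin, followed at 0.444, then NKD1 at 0.508, RUNX2, a transcription factor of bone formation, at 0.616 and PTPRR, a phosphatase gene, at 0.636. RUNX2 and PTPRR were not called with Wnt3a against vehicle (edgeR adjusted p = 0.0564 and 0.189). RUNX2 had a mean of 0.189 CPM in vehicle cells, so that the prior count weighs on its distance. TCF7 ranked 8, and FZD7 ranked 81. No rank is given for TNFRSF19, whose vehicle libraries were all at 0, so that its distance is set by the prior count. NKD2 ranked 2296, and ZNRF3, APCDD1 and LGR5 ranked 10224, 10593 and 11479. By this measure the other 7 genes compared ran from near neighbours of AXIN2 to the far end of the genes compared.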

How the data were processed

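RNA of 9 libraries was sequenced, from polyadenylated RNA prepared with a strand-marking kit per the labels' protocols. The submitters' processing notes name RSEM 1.2.31, STAR 2.5.2a, Trimmomatic 0.36, CASAVA 1.8.2 and the build hg38, and the sources used here do not give the annotation release or the strand setting. The authors deposited an expected count, TPM, FPKM (not used further) and a transcript length per gene, per the file headers. Expected counts were rounded; 58278 rows gave 58233 genes after 45 duplicate rows were summed. Names and coordinates come from GENCODE 29. Genes were filtered with filterByExpr (17880 kept), scaled by TMM and fitted in 1 model of 9 libraries with the two-sided quasi-likelihood test of edgeR 4.0.16 (R 4.3.3), tested on simulated data, with p adjusted after Benjamini-Hochberg over all 17880 and a threshold of 0.05. CPM is TMM-scaled. SE is the log2 fold change over the square root of F, and 95% intervals use the t distribution of the fit. Length and ratios were tested by exact permutation. A group at 0 was given a floor of 3 counts, and intervals on counts cover counting error only. Named genes were the 10 members, up to 3 of each pathway list with the smallest adjusted p per comparison (some are not described), and the 5 genes most like AXIN2; LEF1 and the other genes too low to test were chosen after their values were seen. Members and lists were chosen with earlier results of these data known. Alternatives were RLE or library totals, other filters, DESeq2 1.42.0, limma 3.58.1 (voom, and trend on log2(TPM + 1) or log2(TPM + 0.1)), an effective length offset, a replicate block, only the groups compared, leaving out each library and, chosen after seeing the data, the NKD1 to NKD2 ratio of expected counts.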

Additional observations from a re-analysis of the deposited data

How the results depend on the processing

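Each comparison was recomputed under 20 alternatives. Of 539 member values, 506 kept their side of the threshold, 30 lost a call and 3 gained one. No called value changed sign, whereas 10 uncalled values did, in NKD1 (4), FZD7 (3) and APCDD1 (2) for Wnt3a plus SB-505124 against Wnt3a and in NKD2 (1) against vehicle. With Wnt3a against vehicle, the number of the 9 genes called higher was 3 to 6 when 1 library was left out, with 3 without vehicle replicate 1, vehicle replicate 3 or Wnt3a replicate 2. AXIN2, NKD1 and FZD7 kept that call under all 20 (highest adjusted p 0.00283, 0.0271 and 0.0469). With Wnt3a plus SB-505124 against Wnt3a, 0 genes were called higher with library totals and with limma-trend on log2(TPM + 0.1) or log2(TPM + 1), in place of 1; the cause was not tested. Library totals moved the median of all genes by -0.249 against Wnt3a and -0.227 against vehicle, and the share of higher calls to 30.6% and 33.6%, in place of 48.6% and 50.2%. Over all genes, 75 were called with Wnt3a against vehicle, 299 with DESeq2, 259 with a filter of 1 count and 20 to 140 when 1 library was left out. Whether replicate numbers pair the libraries is not in the labels, and the correlations did not settle it. Libraries of different groups with the same number correlated at -0.182 to 0.416, with 4 of 9 above 0.1. The highest were 0.416 and 0.353, for vehicle and Wnt3a replicates 2 and 3, and 0.325, for Wnt3a and Wnt3a plus SB-505124 replicate 1. Libraries with different numbers ran from -0.453 to 0.306. Only 1 library was closest to its own number in both other groups. With a replicate block, the members called stayed at 6 and 0 for Wnt3a against vehicle. They stayed at 1 and 3 for Wnt3a plus SB-505124 against Wnt3a, and at 5 and 3 against vehicle. Leaving out 1 library kept the sign of every NKD1 to NKD2 comparison (log2 1.01 to 1.33, 1.74 to 2.04 and 2.87 to 3.25 in the same order); the ratio of expected counts, chosen after seeing the data, gave 1.46, 1.19 and 2.65. Depth limits RNF43 and TNFRSF19.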

Other observations

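Of the pathway genes on the lists, 36 were too low to test, 10 of them at 0 in every library. LEF1, a TCF/LEF factor and widely used Wnt target, had 14 counts over the Wnt3a plus SB-505124 libraries, 8 over the Wnt3a libraries and 2 over the vehicle libraries. SP5, a transcription factor gene that Wnt signalling induces, had 7, 8 and 0 counts, and NOTUM, a secreted enzyme that inactivates Wnt proteins, had 3, 2 and 0 counts in the same groups. RSPO2, which encodes a ligand of LGR receptors, had 12 counts with Wnt3a plus SB-505124, 1 with Wnt3a and 0 with vehicle. ASCL2, a Wnt target of intestinal stem cells, was at 0 in all 9 libraries. The genes named so far were picked after their values were seen, and others took another course. MMP7 had 8, 26 and 22 counts with Wnt3a plus SB-505124, Wnt3a and vehicle. DACT2 had 8, 38 and 39 counts and WNT16 had 1, 2 and 7 counts in the same groups. At these counts no difference was tested.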
